A study of Homo sapiens with 12 samples.

Results

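The 8 genes ITGB1 to ITGB8 encode the beta subunits of the human integrins, and all 8 were found by gene symbol among the 32152 genes of the expression table. Their transcripts were followed by RNA-seq in 2 human triple-negative breast cancer lines, Hs-578T and MDA-MB-231, with 12 libraries in all. From either line came 2 libraries of untransfected parental controls, 2 labelled ERK5-ko, made with CRISPR/Cas9 guides against MAPK7 (the gene of the kinase ERK5), and 2 labelled MEK5DD, the usual name of a constitutively active form of the ERK5-activating kinase MEK5. The replicates of a group were consecutive passages of the same cells, so the spread between them need not be that of separate cultures or clones. The study describes a single surviving ERK5-ko clone of MDA-MB-231, does not say which Hs-578T clone was sequenced, and does not describe how the MEK5DD cells were made. Parental MDA-MB-231 cells were at passages 29 and 30 and parental Hs-578T cells at passages 83 and 84, whereas the modified cells were labelled with passages 7 to 11, and passage and modification cannot be told apart in comparisons with the parental cells.

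Integrins are receptors for the extracellular matrix and for other cells, each built of 1 alpha and 1 beta subunit. The beta subunit sets most of the partner choice. Beta1 joins many alpha subunits and binds collagens, laminins and fibronectin, beta3, beta5, beta6 and beta8 join alphaV and bind ligands that carry an arginine-glycine-aspartate motif, beta4 joins alpha6 on laminin and anchors hemidesmosomes, and beta2 and beta7 are best known from leukocytes. The short cytoplasmic tails of most beta subunits bind talin and kindlin, which switch the receptor on and link it to actin, while alphaV with beta6 or beta8 can also release TGF-beta from its latent complex.

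Libraries held between 20248162 and 27791195 reads, recovered from the deposited RPKM values (reads per kilobase of gene model, scaled to the library's total reads). MAP2K5, the gene of MEK5, stood at 188 and 184 RPKM in the MDA-MB-231 libraries labelled MEK5DD against 12.9 and 13.6 in their parental controls, and at 21.3 and 23.8 against 14.6 and 16.9 in Hs-578T. MAPK7 itself did not fall with the ERK5-ko label, at 16.3 and 17.8 RPKM against 13.3 and 14.3 in MDA-MB-231 and at 17.8 and 18.1 against 14.0 and 16.0 in Hs-578T. A gene-level value does not show a small change in the coding sequence, so the ERK5-ko label was not checked by it, and ERK5-ko stands below for the libraries with that label. The study itself reports strongly reduced ERK5 protein by Western blot in the ERK5-ko cells of both lines. It also states that clones were checked by qRT-PCR and Western blot. ESR1 and PGR, the hormone receptor genes that triple-negative tumours lack, were at most 0.120 and 0.348 RPKM, and ERBB2 lay between 27.8 and 56.9.

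The members lie on 7 chromosomes (GRCh38, whole gene including introns and UTRs). ITGB1 (ENSG00000150093.18) spans chr10:32900319-33005792 on the minus strand, ITGB2 (ENSG00000160255.16) chr21:44885953-44931989 on the minus strand, ITGB3 (ENSG00000259207.7) chr17:47253846-47311816 on the plus strand and ITGB4 (ENSG00000132470.13) chr17:75721328-75757818 on the plus strand. ITGB5 (ENSG00000082781.11) spans chr3:124761948-124901418 on the minus strand, ITGB6 (ENSG00000115221.10) chr2:160099666-160271888 on the minus strand, ITGB7 (ENSG00000139626.15) chr12:53191318-53207307 on the minus strand and ITGB8 (ENSG00000105855.9) chr7:20330702-20415754 on the plus strand.

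Promoter windows, from 250 bases before to 50 after a transcript start, were taken from RefSeq (GRCh38.p14) and were found for 5 of the 8 members. Shown here are those of ITGB1, the most abundant member, ITGB8, which differed in most comparisons, and ITGB6, which was close to undetected. Capitals mark exact matches to the GC box GGGCGG, the AP-1 site TGACTCA, the E-box CACCTG or the TATA box TATAAA on either strand.
ITGB1, chr10:32958181-32958480, minus strand: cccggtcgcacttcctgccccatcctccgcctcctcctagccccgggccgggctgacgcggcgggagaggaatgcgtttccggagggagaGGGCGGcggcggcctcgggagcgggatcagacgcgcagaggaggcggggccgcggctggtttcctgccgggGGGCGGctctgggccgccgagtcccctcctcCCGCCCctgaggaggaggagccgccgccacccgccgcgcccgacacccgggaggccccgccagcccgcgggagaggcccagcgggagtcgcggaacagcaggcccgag
ITGB8, chr7:20330650-20330949, plus strand: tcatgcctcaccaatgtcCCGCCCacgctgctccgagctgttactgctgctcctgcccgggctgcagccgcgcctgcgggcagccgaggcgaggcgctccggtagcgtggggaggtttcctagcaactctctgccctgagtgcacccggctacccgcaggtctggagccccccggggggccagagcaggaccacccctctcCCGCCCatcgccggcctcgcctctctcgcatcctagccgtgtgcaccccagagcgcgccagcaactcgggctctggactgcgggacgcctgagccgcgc
ITGB6, chr2:160200223-160200522, minus strand: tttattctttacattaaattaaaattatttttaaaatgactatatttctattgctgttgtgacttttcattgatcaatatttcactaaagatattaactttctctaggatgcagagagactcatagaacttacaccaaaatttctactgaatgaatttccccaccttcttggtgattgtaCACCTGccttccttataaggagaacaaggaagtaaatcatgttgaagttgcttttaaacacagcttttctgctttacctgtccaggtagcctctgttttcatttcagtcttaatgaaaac
The ITGB1 window shown, 1 of 2 for this gene, held 39 CpG dinucleotides and 3 GC boxes and the ITGB8 window 28 CpG dinucleotides and 2 GC boxes, where the median over all 35116 windows was 14 CpG dinucleotides. The other ITGB1 window (chr10:32935509-32935808) held 4 CpG dinucleotides, no GC box and 3 TATA boxes. The ITGB6 window held 0 CpG dinucleotides, no GC box, 1 E-box and 1 match to the MEF2 consensus, which reads the same on both strands and is not in capitals. Of all windows, 45.0% held a GC box, 20.6% an E-box and 2.99% the MEF2 consensus, and the AP-1 site, found in 4.95% of all windows, was not among the letters of these 3 windows. The matches describe the sequence and were not tested for binding.

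Beta subunit transcript was dominated by the same few genes in every library. ITGB1 made up between 64.6% and 77.0% of the summed RPKM of the 8 genes, and ITGB5 was the next in Hs-578T, with 28.1% to 34.9%. In MDA-MB-231 the remainder was shared between ITGB5, with 11.4% to 15.8%, and ITGB4, with 10.96% to 17.1%. The other 5 members together gave between 0.416% and 0.608%. The summed RPKM lay between 1737 and 1984 in parental and ERK5-ko MDA-MB-231 libraries, at 1449 and 1359 in those labelled MEK5DD, and between 2327 and 2651 in all 6 Hs-578T libraries. Shares and sums rest on the gene lengths behind the deposited RPKM, and other lengths would change them.

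**Figure D1:**
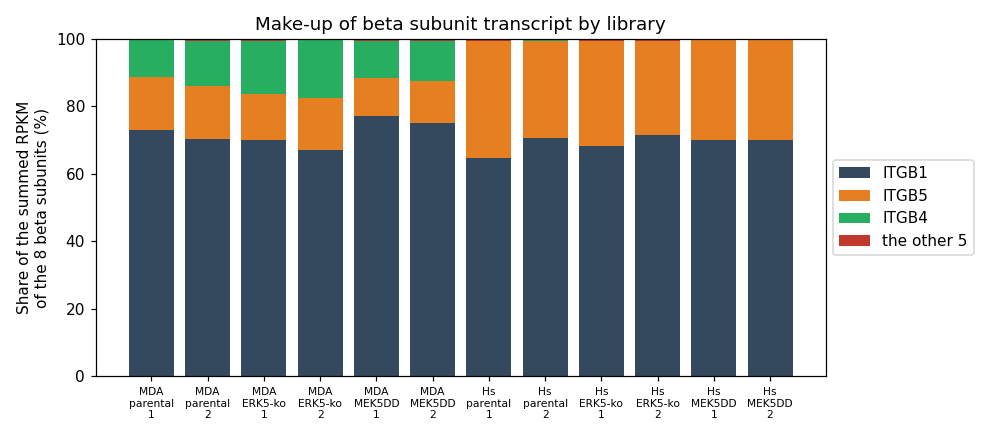
Share of the summed RPKM of the 8 beta subunit genes (vertical axis, %) in each of the 12 libraries (bars, named by line, group and replicate). ITGB1 fills 64.6% to 77.0% of every bar, ITGB4 is visible only in MDA-MB-231, and the other 5 genes together stay at or under 0.608%.

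In parental MDA-MB-231 cells the order of levels by RPKM was ITGB1 (1381 ± 79.3, SD, n = 2), ITGB5 (302 ± 6.66), ITGB4 (235 ± 26.6), ITGB3 (5.03 ± 0.0776), ITGB2 (2.11 ± 0.182), ITGB8 (2.003 ± 0.0602), ITGB6 (0.203 ± 0.105) and ITGB7 (0.175 ± 0.156). ITGB2 and ITGB8 overlapped between replicates, as did ITGB6 and ITGB7. In parental Hs-578T cells the order was ITGB1 (1706 ± 238), ITGB5 (796 ± 47.4), ITGB3 (9.39 ± 0.140), ITGB8 (2.61 ± 0.531), ITGB4 (0.293 ± 0.0716), ITGB7 (0.254 ± 0.0340), ITGB2 (0.213 ± 0.0147) and ITGB6 (0.0198 ± 0.0280). There ITGB4 and ITGB7 overlapped, and ITGB7 and ITGB2 rested on only 14 reads each over both libraries.

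The place of ITGB4 depends on the gene length used. The divisors recovered from the deposited values were 2529 bases for ITGB4 and 1109 for ITGB5, close to the mean transcript lengths in GENCODE 29 (2547 and 1114) and far below the longest transcripts (5919 and 4372). Per kilobase of the longest transcript, a choice made after seeing the data, parental MDA-MB-231 cells had 100.3 for ITGB4 and 76.7 for ITGB5, so that ITGB4 came before ITGB5, and ITGB8 (0.954) came before ITGB2 (0.667). Per kilobase of all exonic bases the order was again ITGB4 (87.8) before ITGB5 (52.0) and ITGB8 (0.551) before ITGB2 (0.469). The order in parental Hs-578T cells was the same with all 3 lengths. Ratios of reads of 1 gene between libraries do not use the length, but the 0.5 RPKM limit and the pseudocount of the test do, and with another length the fitted differences of low members such as ITGB2 would change.

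**Figure D2:**
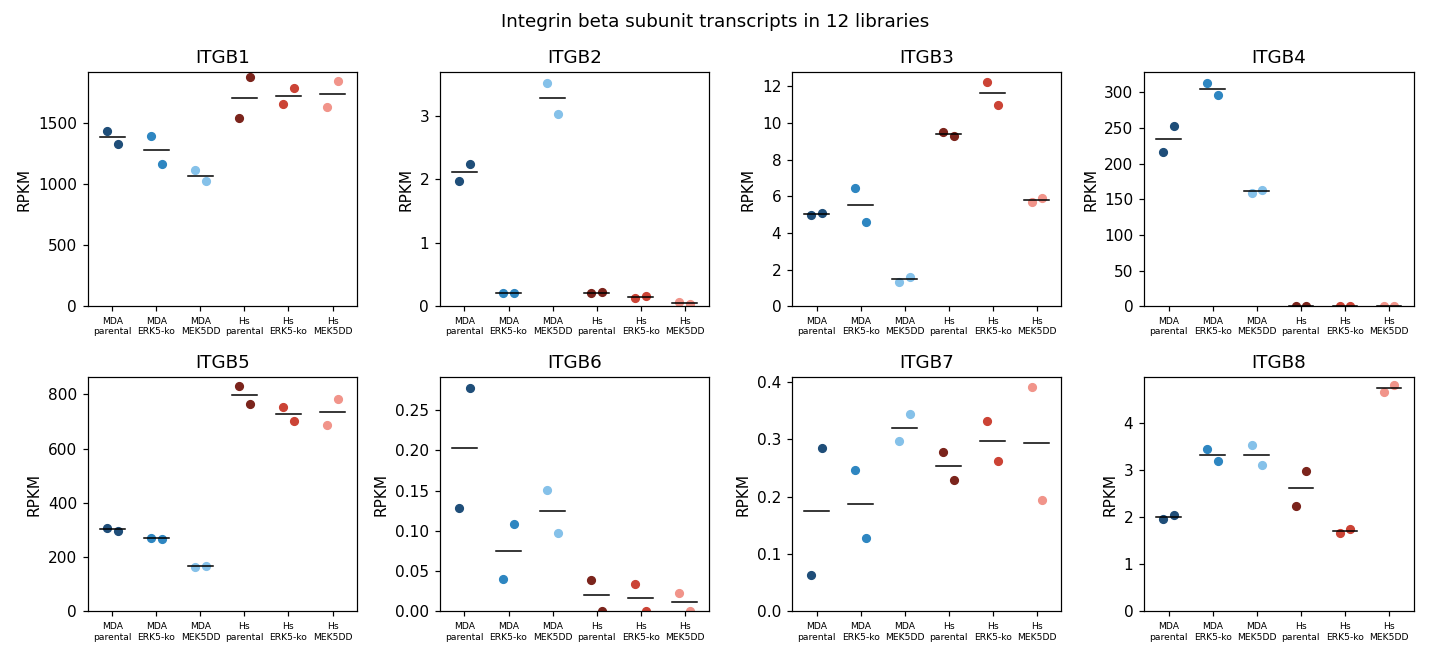
RPKM of each beta subunit gene (vertical axis, linear from 0, with its own scale per gene) in the 6 groups. Points are single libraries and bars the mean of 2. ITGB4 stands between 159 and 313 RPKM in MDA-MB-231 and at or below 0.344 in Hs-578T, and ITGB2 is lowest among MDA-MB-231 groups in ERK5-ko.

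Between the parental lines, 3 of the 4 members measured above 0.5 RPKM in both lines differed (limma on log2(RPKM + 0.5), adjusted p under 0.05), against 77.4% of the 13737 protein-coding genes tested. ITGB2 and ITGB4 entered the test through MDA-MB-231 libraries alone, where they are high, so that they had to differ and are given as a description. ITGB6 and ITGB7 did not reach 0.5 RPKM in any library and were not tested. ITGB4 differed most, with 31304 reads in MDA-MB-231 against 32 in Hs-578T, a ratio of 812 per total reads (95% exact counting interval 575 to 1187). ITGB2 was also higher in MDA-MB-231, with 168 reads against 14 and a ratio of 9.96 (5.77 to 18.6). ITGB5 (-1.39 ± 0.10, SE, adjusted p = 8.24e-08) and ITGB3 (-0.84 ± 0.14, adjusted p = 0.000229) were lower in MDA-MB-231. ITGB8 was lower by a log2 difference of -0.30 ± 0.13 (adjusted p = 0.0457), and this call was lost, for instance, without parental Hs-578T replicate 2, at -0.13 (adjusted p = 0.387). The median gene was 0.19 higher in MDA-MB-231, relative to which ITGB5 was at -1.59, ITGB3 at -1.03 and ITGB8 at -0.50. ITGB1 had a difference of -0.30 (adjusted p = 0.0659), which was -0.53 with median-ratio scaling (adjusted p = 0.00358) and 0.30 with quantile normalization, so no direction can be given for it.

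ITGB1, the common beta subunit of collagen, laminin and fibronectin receptors, passed the test in 0 of the 9 comparisons with limma, in 1 at an unadjusted p under 0.05 and in 2 with limma voom on the recovered reads. In MDA-MB-231 it stood at 1437 and 1325 RPKM in parental cells, 1390 and 1165 in ERK5-ko and 1116 and 1021 in MEK5DD. The MEK5DD libraries lay below the parental ones without overlap, with a log2 difference of -0.37 (95% confidence interval -0.67 to -0.07, adjusted p = 0.0508, or 0.00877 with the replicate number as a block). In Hs-578T the values were 1538 and 1875 in parental cells, 1656 and 1783 in ERK5-ko and 1630 and 1843 in MEK5DD, and the 3 groups overlapped. The differences there were 0.02 (95% confidence interval -0.28 to 0.32) for ERK5-ko and 0.03 (-0.27 to 0.33) for MEK5DD.

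Against parental cells, 2 of the 6 tested members passed in ERK5-ko MDA-MB-231 (17.3% of all genes tested) and 5 in MEK5DD MDA-MB-231 (41.3%). In Hs-578T, 2 passed in ERK5-ko (39.4%) and 3 in MEK5DD (23.4%). ERK5-ko and MEK5DD cells differed in 4 members in MDA-MB-231 (55.0%) and in 3 in Hs-578T (50.0%). The difference from parental cells itself differed between the lines in 3 members for ERK5-ko (39.8%) and in 3 for MEK5DD (39.6%). When calls also had to exceed a fold of 1.5 or lie under 0.5, the counts were 2 (3.87% of all genes) and 2 (13.9%) in ERK5-ko and MEK5DD cells of MDA-MB-231, and 1 (4.38%) in MEK5DD cells of Hs-578T. No member reached a fold limit in ERK5-ko cells of Hs-578T (12.6%) on the log2(RPKM + 0.5) scale, where the pseudocount compresses ITGB4, whose ratio in reads was 0.0810. The pseudocount also kept ITGB2 within the fold limits in MEK5DD cells. Its ratio in reads was 0.229 against a fitted fold of 0.770 in Hs-578T, and 1.54 against 1.45 in MDA-MB-231. Between ERK5-ko and MEK5DD the counts with fold limits were 2 (19.3%) in Hs-578T and 4 (23.6%) in MDA-MB-231. They were 3 (49.5%) between the parental lines, and for the differences between the lines 3 (20.7%) for ERK5-ko and 1 (22.2%) for MEK5DD. ITGB2 met the limit of 0.5 RPKM only in parental and MEK5DD libraries of MDA-MB-231 and ITGB4 only in MDA-MB-231, so the counts that hold them are no support. All comparisons of a line with its parental cells share those 2 libraries.

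**Figure D3:**
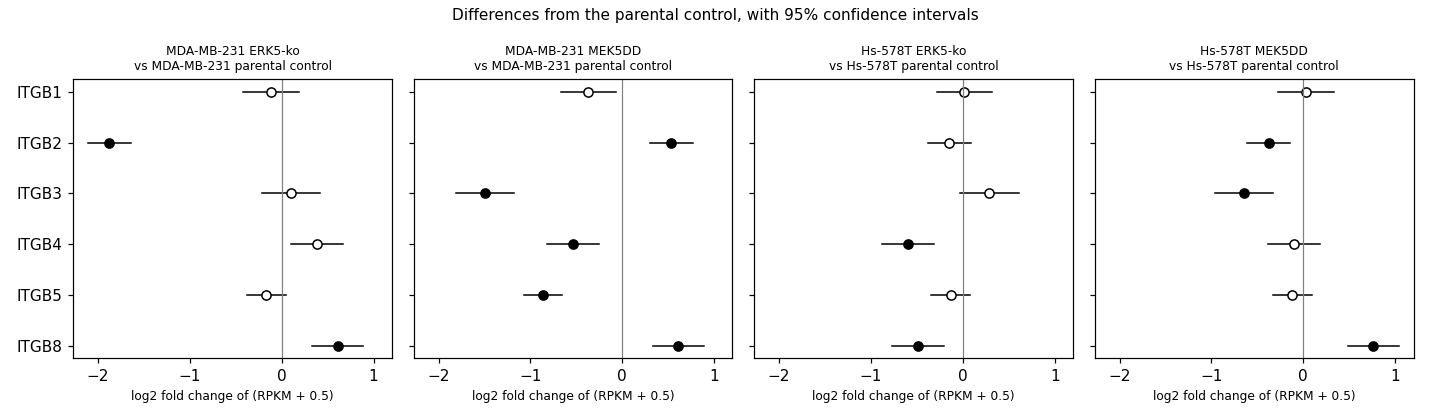
Log2 fold change of (RPKM + 0.5) from the parental control (horizontal axis) for the 6 tested members in the 4 comparisons, with 95% confidence intervals from limma (lines). Filled points passed an adjusted p under 0.05 and open points did not. ITGB8 lies above 0 in both MDA-MB-231 comparisons and on opposite sides of 0 in the Hs-578T comparisons.

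Among the partners of alphaV, ITGB3, the beta chain of the vitronectin receptor, fell in MEK5DD cells of both lines. In MDA-MB-231 it stood at 4.98 and 5.09 RPKM in parental cells, 6.47 and 4.57 in ERK5-ko and 1.32 and 1.61 in MEK5DD. The MEK5DD libraries lay below all others of the line, a change of -1.50 ± 0.14 from parental cells (adjusted p = 8.46e-06), whereas the ERK5-ko libraries fell on either side of the parental ones (0.10, 95% confidence interval -0.21 to 0.42). In Hs-578T the values were 9.49 and 9.29 in parental cells, 12.2 and 10.98 in ERK5-ko and 5.69 and 5.93 in MEK5DD. The MEK5DD libraries were again the lowest (-0.65 ± 0.14, adjusted p = 0.00823), and the ERK5-ko libraries were both above the parental ones without passing the test (0.29, adjusted p = 0.135). ERK5-ko exceeded MEK5DD by 1.60 in MDA-MB-231 (adjusted p = 2.91e-06) and by 0.94 in Hs-578T (adjusted p = 0.000284). The MEK5DD difference was larger in MDA-MB-231, by -0.85 ± 0.20 (adjusted p = 0.0068).

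ITGB3 is covered over 57920 bases by a gene on the same strand, RP11-290H9.2, and 81.4% of the exonic bases of that gene in GENCODE 29 also lie in ITGB3 exons. In every library RP11-290H9.2 held between 60.6% and 68.0% as many reads as ITGB3, so the reads of the pair cannot be told apart and the level of ITGB3 is uncertain.

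ITGB5, whose product binds vitronectin with alphaV, fell in MEK5DD cells of MDA-MB-231. It stood at 307 and 298 RPKM in parental cells, 271 and 267 in ERK5-ko and 165 and 167 in MEK5DD. Both replicates of MEK5DD lay far below the other 4 libraries (-0.86 ± 0.10 from parental cells, adjusted p = 2.53e-05), and ERK5-ko exceeded MEK5DD by 0.69 (adjusted p = 8.32e-05). The ERK5-ko libraries were below the parental ones by a log2 difference of -0.17, which did not pass (adjusted p = 0.265). In Hs-578T the values were 830 and 763 in parental cells, 753 and 702 in ERK5-ko and 686 and 782 in MEK5DD. The MEK5DD libraries overlapped both other groups there, with a difference of -0.12 from parental cells (95% confidence interval -0.33 to 0.09). The MEK5DD difference was stronger in MDA-MB-231 than in Hs-578T by -0.74 ± 0.14 (adjusted p = 0.00127).

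ITGB8, which joins alphaV in a receptor that activates latent TGF-beta, rose in MEK5DD cells of both lines and moved in opposite directions in the ERK5-ko cells. In MDA-MB-231 it stood at 1.96 and 2.05 RPKM in parental cells, 3.44 and 3.19 in ERK5-ko and 3.53 and 3.11 in MEK5DD. Both modified groups lay above the parental one and overlapped each other, with changes of 0.61 ± 0.13 (adjusted p = 0.00708) in ERK5-ko and 0.61 ± 0.13 (adjusted p = 0.00245) in MEK5DD. In Hs-578T the values were 2.24 and 2.99 in parental cells, 1.66 and 1.74 in ERK5-ko and 4.67 and 4.82 in MEK5DD, and no groups overlapped. ITGB8 fell by 0.49 ± 0.13 on the log2 scale in ERK5-ko (adjusted p = 0.0103) and rose by 0.76 ± 0.13 in MEK5DD (adjusted p = 0.00161), and ERK5-ko lay below MEK5DD by a difference of -1.25 (adjusted p = 1.23e-05). The ERK5-ko difference of MDA-MB-231 exceeded that of Hs-578T by 1.10 ± 0.18 (adjusted p = 0.000679), whereas the MEK5DD differences were -0.15 apart (95% confidence interval -0.55 to 0.24).

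The ERK5-ko calls of ITGB8 rest on few libraries. Without parental replicate 1 or ERK5-ko replicate 1 of MDA-MB-231 the adjusted p became 0.0648 or 0.0589, and without parental replicate 2 or ERK5-ko replicate 1 of Hs-578T it became 0.0796, at a difference of -0.31, or 0.0569.

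ITGB6, the epithelial partner of alphaV, was close to undetected. It had 7 and 17 reads in parental MDA-MB-231 cells (0.128 and 0.277 RPKM), 2 and 6 in ERK5-ko and 8 and 6 in MEK5DD. The ERK5-ko libraries lay below the parental ones, at a ratio of 0.368 (95% exact counting interval 0.143 to 0.847), and the MEK5DD libraries overlapped them. In Hs-578T each group held 1 or 2 reads in its first replicate and 0 in its second, at or under the floor of 3 reads over a group, and no difference was detectable at this depth.

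ITGB4, the hemidesmosome subunit that pairs with alpha6, was an MDA-MB-231 transcript. It stood at 216 and 253 RPKM in parental cells, 313 and 297 in ERK5-ko and 159 and 163 in MEK5DD, so that the 3 groups did not overlap. ITGB4 fell by 0.54 ± 0.13 on the log2 scale in MEK5DD (adjusted p = 0.00557), and ERK5-ko lay above MEK5DD by 0.92 (adjusted p = 8.93e-05). The difference of ERK5-ko from parental cells was 0.38 ± 0.13 and did not pass (adjusted p = 0.0629), although it passed in 6 of the alternatives, among them limma voom on the recovered reads (adjusted p = 0.0365). Without parental replicate 2 the MEK5DD change was -0.42 (adjusted p = 0.0744). ITGB4 shares 6225 bases with GALK1 on the opposite strand, which lay between 15.7 and 44.2 RPKM.

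In Hs-578T, ITGB4 had 14 and 18 reads in parental cells (0.242 and 0.344 RPKM), 1 and 2 in ERK5-ko (0.0151 and 0.0327) and 8 and 17 in MEK5DD (0.156 and 0.328). The ERK5-ko libraries were below all others of the line, at a ratio of 0.0810 to parental cells (95% exact counting interval 0.0159 to 0.259), and MEK5DD overlapped the parental group. The test gave -0.60 ± 0.13 for ERK5-ko (adjusted p = 0.00354), a value compressed by the pseudocount and at -3.29 with limma voom. The ERK5-ko differences of the lines differed by 0.98, with few reads on the Hs-578T side. This value is a description, since ITGB4 passed the filter only through MDA-MB-231 and its size depends on the pseudocount.

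ITGB2, the beta chain of the leukocyte integrins, was lowest in ERK5-ko cells among the MDA-MB-231 groups. It had 74 and 94 reads in parental cells (1.98 and 2.24 RPKM), 7 and 8 in ERK5-ko (0.205 and 0.212) and 128 and 127 in MEK5DD (3.52 and 3.03). The 3 groups were well apart, with a ratio of 0.0986 for ERK5-ko to parental cells (95% exact counting interval 0.0540 to 0.167). Since ITGB2 passed the filter only through the parental and MEK5DD libraries, its ERK5-ko differences are given as a description, at -1.88 from parental cells on the log2(RPKM + 0.5) scale, or -3.25 with limma voom, and -2.41 from MEK5DD. ITGB2 rose by 0.53 ± 0.11 in MEK5DD (adjusted p = 0.00191).

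In Hs-578T, ITGB2 had 7 and 7 reads in parental cells, 5 and 6 in ERK5-ko and 2 and 1 in MEK5DD. The groups did not overlap, but all rested on few reads, and the ratio of MEK5DD to parental cells was 0.229 (95% exact counting interval 0.0422 to 0.821). The test gave -0.38 ± 0.11 (adjusted p = 0.0252) for MEK5DD, which was lost at a pseudocount of 1 (adjusted p = 0.0800), with quantile normalization (adjusted p = 0.134) and without parental replicate 1, parental replicate 2 or MEK5DD replicate 2 (adjusted p = 0.0629, 0.0936 and 0.0659), and was -1.86 with limma voom. The differences of the lines were -1.73 apart for ERK5-ko and 0.91 apart for MEK5DD, values that rest on the same choice and on Hs-578T libraries compressed by the pseudocount.

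The alpha partners of beta2 were at or near 0 beside it. ITGAL, ITGAM, ITGAD and ITGAX reached at most 0.134, 0.148, 0.0230 and 0.208 RPKM. Of 10 leukocyte markers 8 were in the table, and PTPRC, which encodes the pan-leukocyte protein CD45, reached at most 0.396 RPKM. The summed level of the markers was 70.3 and 77.0 RPKM in parental MDA-MB-231 libraries, 56.9 and 69.2 in ERK5-ko and 116 and 114 in MEK5DD, most of it CD68, a lysosomal protein gene also used outside leukocytes, at 62.5 and 69.0, 52.4 and 64.3, and 108 and 107. CD53, a leukocyte tetraspanin gene, was at 3.69 and 3.37 RPKM in the MDA-MB-231 MEK5DD libraries and at most 0.0488 elsewhere. Of the 4 markers tested, CD53 and CD68 rose by 3.01 and 0.70 in MEK5DD cells of MDA-MB-231, while CD14, a monocyte receptor gene, fell by 0.97 and CSF1R, the gene of a macrophage growth factor receptor, fell by 0.68. CD53 passed the 0.5 RPKM filter only through the MEK5DD libraries of MDA-MB-231, so it had to differ. Its rise is a description, and the size is set by the pseudocount. CSF1R also fell by 0.92 in ERK5-ko cells of that line, the only marker of the 4 to pass there with limma. In Hs-578T, 3 markers fell in ERK5-ko and 2 in MEK5DD, where 39.4% and 23.4% of all genes tested passed in either direction. Of the markers, 0 rose in either by limma or limma voom. The part of these genes in the ITGB2 differences was not tested. In Hs-578T the sum lay between 26.0 and 56.3.

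ITGB7, which pairs with alpha4 and alphaE on lymphocytes, had between 2 and 12 reads in every library. In MDA-MB-231 the reads were 2 and 10 in parental cells, 7 and 4 in ERK5-ko and 9 and 12 in MEK5DD, at a ratio of 1.77 for MEK5DD to parental cells (95% exact counting interval 0.834 to 3.96). In Hs-578T they were 8 and 6, 11 and 8, and 10 and 5, with overlap between all groups. No difference was detectable at this depth. ITGB7 shares 3824 bases with ZNF740 on the opposite strand, which lay between 8.45 and 11.4 RPKM.

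Of the 18 alpha subunit genes, 12 were tested. In MDA-MB-231, 3 fell in ERK5-ko and 5 in MEK5DD, with medians of -0.09 and -0.20, and 0 rose in either by limma or limma voom, against 0 and 1 at an unadjusted p under 0.05. In Hs-578T, 3 rose and 4 fell in ERK5-ko (median -0.11), and 1 fell in MEK5DD (median -0.17). The medians over all tested genes in the same 4 comparisons were -0.04, -0.01, 0.01 and -0.08. In the same order, 17.3%, 41.3%, 39.4% and 23.4% of all genes tested passed, in either direction. These shares and medians apply to the counts of all other lists as well. ITGAV, the shared partner of beta3, beta5, beta6 and beta8, fell by 0.999 ± 0.11 on the log2 scale in MEK5DD cells of MDA-MB-231 (adjusted p = 2.5e-05), from 78.9 and 75.9 RPKM to 40.0 and 37.0. ITGA6, the partner of beta4, fell in MEK5DD cells of MDA-MB-231 from 245 and 231 to 146 and 133 RPKM (-0.77, adjusted p = 0.000966). In ERK5-ko cells of that line it was at 189 and 163 RPKM, a difference of -0.44 that did not pass (adjusted p = 0.0515). ITGA6 had at most 7.96 RPKM in parental Hs-578T cells. ITGA2, a collagen receptor subunit that pairs with beta1, fell by 0.55 in ERK5-ko and fell by 0.93 in MEK5DD cells of MDA-MB-231 and rose by 0.76 in ERK5-ko cells of Hs-578T. ITGA10, another collagen receptor subunit, fell by 0.61 in ERK5-ko cells of MDA-MB-231 and fell by 1.29 in those of Hs-578T. ITGA5, the fibronectin receptor subunit, fell by 0.35 in ERK5-ko and fell by 0.27 in MEK5DD cells of MDA-MB-231 and rose by 0.38 in ERK5-ko cells of Hs-578T. ITGA7, a laminin receptor subunit, fell by 0.75 in ERK5-ko cells of Hs-578T. ITGA3, also a laminin receptor subunit, fell in MEK5DD cells of both lines, by 0.71 in Hs-578T and by 0.66 in MDA-MB-231. ITGA4, a partner of beta7 and beta1, lay at or under 0.0587 RPKM in every MDA-MB-231 library and between 20.1 and 39.0 in Hs-578T.

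**Figure D4:**
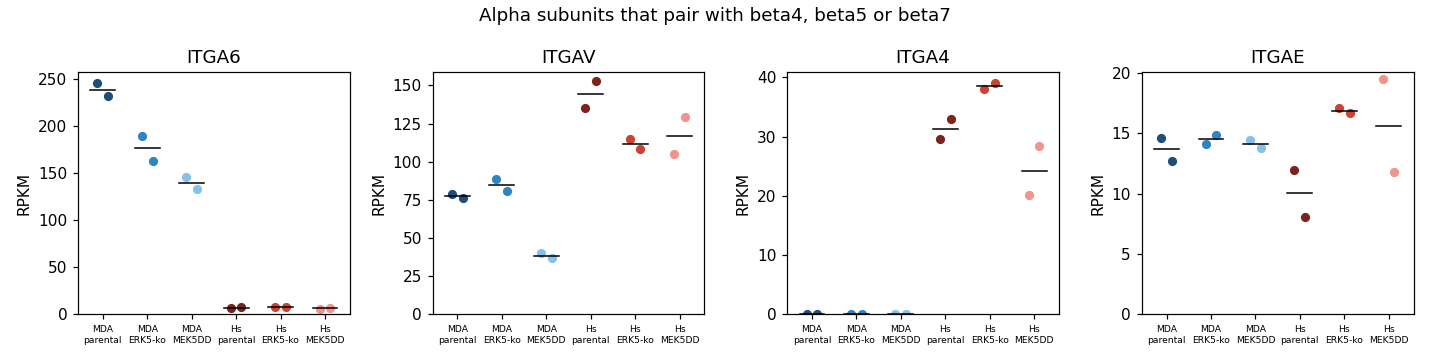
RPKM (vertical axis, linear from 0) of ITGA6, ITGAV, ITGA4 and ITGAE in the 6 groups, with points for libraries and bars for the mean of 2. ITGAV is lowest in the MDA-MB-231 MEK5DD libraries, at 40.0 and 37.0, and ITGA4 is at or under 0.0587 in MDA-MB-231.

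All 21 genes of activators and adaptors at the beta tail were tested. In MDA-MB-231, 2 rose and 2 fell in ERK5-ko (median -0.01), and 4 rose and 6 fell in MEK5DD (median -0.12). In Hs-578T, 6 rose and 3 fell in ERK5-ko (median 0.05), and 2 rose and 2 fell in MEK5DD (median -0.03). SRC, a kinase that acts downstream of integrins, fell by 3.08 on the log2 scale in MEK5DD cells of MDA-MB-231, from 29.6 and 28.9 RPKM to 2.89 and 3.13. LIMS2, which encodes the adaptor PINCH2, fell by 1.20 there and rose by 0.34 in ERK5-ko cells of that line. FERMT3, the kindlin of blood cells, rose by 1.16 in MEK5DD cells of MDA-MB-231. PXN, which encodes the focal adhesion adaptor paxillin, fell by 0.51 in ERK5-ko cells of MDA-MB-231 and rose by 0.71 in those of Hs-578T. PTK2, the gene of focal adhesion kinase, fell by 0.38 and TNS3, a tensin gene, rose by 0.56 in ERK5-ko cells of MDA-MB-231, and PTK2 rose by 0.36 in those of Hs-578T. In Hs-578T, PARVG, a parvin gene, fell by 0.98 and TNS2, a tensin gene, fell by 0.66 in ERK5-ko, while PTK2B fell by 0.76, BCAR1 fell by 0.60 and TLN2, the second talin gene, rose by 0.52 in MEK5DD. Of 5 genes of integrin inhibitors or their binding partners, 0 passed in ERK5-ko cells of MDA-MB-231 by limma or limma voom, against 1 at an unadjusted p under 0.05. In MEK5DD, DOK1 and ITGB1BP1, which compete with talin or kindlin for beta tails, rose by 0.47 and 0.46, and KRIT1, which binds ITGB1BP1, fell by 0.51. In Hs-578T, DOK1 fell by 0.40 in ERK5-ko and by 0.75 in MEK5DD, and FLNA, the gene of the actin crosslinker filamin A, rose by 0.63 in ERK5-ko.

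Of 16 ligand genes, 14 were tested. In MDA-MB-231, 4 rose and 2 fell in ERK5-ko (median 0.02), and 4 rose and 6 fell in MEK5DD (median -0.08). In Hs-578T, 5 rose and 3 fell in ERK5-ko (median 0.26), and 2 rose and 3 fell in MEK5DD (median 0.05). EDIL3, a matrix ligand of alphaV integrins, rose by 1.18 in ERK5-ko and fell by 1.68 in MEK5DD cells of MDA-MB-231, at 135 and 120 RPKM and at 16.9 and 17.3 RPKM against 56.7 and 54.9 in parental cells, and it fell by 0.47 and 0.46 in ERK5-ko and MEK5DD cells of Hs-578T. VTN, the gene of vitronectin, rose by 1.70 and THBS1, the gene of thrombospondin-1, rose by 1.20 in ERK5-ko cells of MDA-MB-231. In MEK5DD cells of that line VTN fell by 1.23 and THBS1 rose by 0.97. VTN was at 0.673 and 0.665 RPKM in these parental cells and at 0 in both MEK5DD libraries, so the size of its fall is set by the pseudocount. TNC, the gene of tenascin-C, rose in MEK5DD cells of both lines, by 2.41 in MDA-MB-231 and by 1.79 in Hs-578T, and also in ERK5-ko cells of Hs-578T, by 1.52, whereas it fell by 0.72 in ERK5-ko cells of MDA-MB-231. ICAM1, a ligand of beta2 integrins, fell by 1.25 in MEK5DD cells of MDA-MB-231 and rose by 1.26 in those of Hs-578T. L1CAM, a neural adhesion molecule that binds integrins, fell by 2.82 in ERK5-ko and fell by 1.14 in MEK5DD cells of Hs-578T. CDH1, the gene of E-cadherin and a ligand of alphaE with beta7, rose by 1.21 in ERK5-ko cells of Hs-578T, to 0.930 and 1.16 RPKM from 0.119 and 0.218. It fell by 1.14 in MEK5DD cells of MDA-MB-231, to 0.0376 and 0 RPKM from 0.640 and 0.650, a size compressed by the pseudocount.

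All 7 genes around latent TGF-beta, the cargo of alphaV with beta6 or beta8, were tested. In MDA-MB-231, 2 rose and 2 fell in ERK5-ko (median 0.01), and 1 rose and 2 fell in MEK5DD (median -0.03). In Hs-578T, 1 rose and 2 fell in ERK5-ko (median -0.03), and 3 fell in MEK5DD (median -0.21). LTBP3, a latent TGF-beta binding protein gene, fell by 2.98 in MEK5DD cells of MDA-MB-231, from 16.5 and 16.7 RPKM to 1.61 and 1.72, fell by 0.44 in ERK5-ko cells of Hs-578T and rose by 0.71 in those of MDA-MB-231. TGFB2 rose in ERK5-ko cells of both lines, by 1.14 in MDA-MB-231 and by 0.48 in Hs-578T. TGFB3 fell by 1.28 in ERK5-ko and fell by 0.41 in MEK5DD cells of Hs-578T, and TGFB1 and LRRC32, which tethers latent TGF-beta to the cell surface, fell by 0.35 and 0.51 in MEK5DD. LTBP1 fell by 1.11 in ERK5-ko and rose by 0.51 in MEK5DD cells of MDA-MB-231, and NRROS, another tether of latent TGF-beta, fell by 0.83 and 0.52 in these cells.

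All 7 hemidesmosome genes, whose products join alpha6 with beta4 on laminin-332, were tested. In MDA-MB-231, 1 rose and 2 fell in ERK5-ko (median -0.31), and 1 rose and 2 fell in MEK5DD (median -0.12). In Hs-578T, 3 rose and 1 fell in ERK5-ko (median 0.72), and 1 rose and 2 fell in MEK5DD (median -0.02). ITGB4 itself is not in the list and was at its floor in the ERK5-ko cells of Hs-578T. LAMB3, a laminin chain gene, rose by 1.34 in ERK5-ko cells of Hs-578T, from 16.6 and 16.9 to 45.3 and 41.0 RPKM, and fell by 0.97 in MEK5DD cells of that line. COL17A1, a transmembrane collagen gene of hemidesmosomes, rose by 0.72 in ERK5-ko and fell by 0.53 in MEK5DD cells of Hs-578T and fell by 1.26 in ERK5-ko cells of MDA-MB-231. In MDA-MB-231, LAMB3 fell by 0.51 in ERK5-ko and rose by 0.44 in MEK5DD, LAMA3, another laminin chain gene, fell by 0.64 in MEK5DD, and CD151, the gene of a tetraspanin that binds laminin-binding integrins, rose by 0.56 in ERK5-ko.

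The genes most like each member were sought by Pearson's r over the 12 libraries after the mean of each line was subtracted. They were PPIG (r = 0.963) and UGGT2 (0.957) for ITGB1, KISS1 (0.976) for ITGB2, and RP11-290H9.2 (0.998), which shares its reads, and GALNT11 (0.989) for ITGB3. VPS39 (0.982) and ARHGEF37 (0.979) were most like ITGB4, PDGFRB (0.982) and TNNT1 (0.980) most like ITGB5, and DFNA5 (0.956) and SDHA (0.952) most like ITGB8. These values share libraries and groups and are a description over 13737 genes.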

How the data were processed

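Messenger RNA was taken at 70% confluence and sequenced with a stranded kit in 12 libraries. The submitters' processing notes name bcl2fastq, Trimmomatic 0.32, TopHat2 2.1.1, R 3.3.1, DESeq2 1.12.4 and GRCh38; the counting tool, its strand setting and the annotation are not given in the sources used here. The authors deposited RPKM values for 32152 genes. All 12 columns were matched to samples by their labels.

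The steps between RPKM values gave back each library's total and the whole reads per gene. All 32152 genes gave whole reads (tolerance 0.001 reads), although a gene with reads in only 1 library does so by construction. With totals 1% off, 0 of 500 genes gave whole reads. The recovered lengths were kept for that control, so its outcome was fixed in advance and is no support. For 6 of the 8 members, those with the same identifier in GENCODE 29, the recovered length equals, after rounding, the mean length of the gene's transcripts less 1 base per exon, so levels of different genes depend on that divisor. Totals of 20248162 to 27791195 reads make 3 reads over both libraries of a group, the floor used here, 0.0137 to 0.0698 RPKM for the members. Counting intervals (95%, exact) and the floor cover counting error only. Replicates differed by 28.2 and 38.5 in chi-square per degree of freedom in parental and MEK5DD Hs-578T cells and by 2.67 to 8.21 in the other groups. No libraries were identical. The fit shares its estimate of the spread over all groups, so the SE of comparisons with those Hs-578T groups may be too small.

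The test covered protein-coding genes that reached 0.5 RPKM in 2 or more libraries (13737 genes, 6 of the 8 members), with limma 3.58.1 in R 4.3.3 on log2(RPKM + 0.5), which understates changes of low genes, with 6 group means, 6 residual degrees of freedom and a variance trend. P values were adjusted by Benjamini-Hochberg within each of 9 comparisons, and an adjusted p under 0.05 passed. The fit and the read recovery were tested on simulated data. Alternatives were the pseudocount, the filter, the scaling, gene types, the libraries fitted, the fold limits of 1.5 and 0.5, a replicate block, limma voom on recovered reads and leaving out each library. Levels per kilobase of the longest transcript or of all exonic bases were added after seeing the data.

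All members were reported, with list genes limited to the 3 largest changes that passed per list and comparison and the 2 genes most like each member, of which some named by this rule are not reported here. Members and lists were chosen with earlier results of these data known.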

Additional observations from a re-analysis of the deposited data

Results flagged for a closer look

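The difference from parental cells was not the same in the 2 lines for ITGB2, ITGB4 and ITGB8 in ERK5-ko. In MEK5DD this held for ITGB2, ITGB3 and ITGB5. The test was of the difference itself in limma (MDA-MB-231 minus Hs-578T, log2 scale, adjusted p under 0.05). Of all genes tested, 39.8% passed this test for ERK5-ko and 39.6% for MEK5DD. ITGB2 passed the 0.5 RPKM filter only through parental and MEK5DD libraries of MDA-MB-231, and ITGB4 only through MDA-MB-231 libraries. The values of both are a description, and the pseudocount compresses ITGB2 and ITGB4 in Hs-578T.

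For ERK5-ko, ITGB2 differed by -1.73, with both ERK5-ko libraries below both parental ones in each line and 15 reads left in MDA-MB-231. ITGB4 differed by 0.98, with both ERK5-ko libraries above the parental ones in MDA-MB-231 and below them in Hs-578T, where 3 reads were compared with 32. ITGB8 differed by 1.10 (adjusted p = 0.000679), again with both libraries above in MDA-MB-231 and below in Hs-578T.

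For MEK5DD, ITGB2 differed by 0.91, higher in both libraries of MDA-MB-231 and lower in both of Hs-578T. ITGB3 differed by -0.85 (adjusted p = 0.0068) and was lower in both libraries of each line. ITGB5 differed by -0.74 (adjusted p = 0.00127), lower in both libraries of MDA-MB-231 and overlapping the parental ones in Hs-578T.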

How the results depend on the processing

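Over 786 recalculations of single members, 716 kept their direction and their side of the threshold, 19 lost the call, 24 gained it and 27 reversed, none of the reversals in a difference that had passed the test. With quantile normalization the reversed differences were ITGB1 between the parental lines (0.30), ITGB1 (-0.00515) and ITGB4 (0.0283) in MEK5DD Hs-578T, and ITGB1 (0.21) and ITGB5 (0.12) for ERK5-ko against MEK5DD in Hs-578T. With median-ratio scaling they were ITGB1 in ERK5-ko Hs-578T (-0.0109), ITGB8 for ERK5-ko against MEK5DD in MDA-MB-231 (0.0242, and 0.00119 with limma voom) and ITGB5 in the ERK5-ko difference between lines (0.0565). The cause was not tested.

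Leaving out 1 library at a time gave these ranges where a sign turned. ITGB1 ranged from -0.244 to 0.0108 in ERK5-ko MDA-MB-231, from -0.13 to 0.16 in ERK5-ko Hs-578T, from -0.11 to 0.17 in MEK5DD Hs-578T, from -0.101 to 0.0762 for ERK5-ko against MEK5DD in Hs-578T and from -0.277 to 0.00863 in the ERK5-ko difference between lines. ITGB3 ranged from -0.13 to 0.33 in ERK5-ko MDA-MB-231 and from -0.416 to 0.0417 in the ERK5-ko difference between lines. ITGB4 ranged from -0.270 to 0.0649 in MEK5DD Hs-578T. ITGB5 ranged from -0.105 to 0.0835 for ERK5-ko against MEK5DD in Hs-578T and from -0.0991 to 0.0223 in the ERK5-ko difference between lines. ITGB8 ranged from -0.0794 to 0.0781 for ERK5-ko against MEK5DD in MDA-MB-231 and from -0.329 to 0.0205 in the MEK5DD difference between lines.

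Counts of members past the test moved by over 1.5 times in ERK5-ko MDA-MB-231 (2, against 4 with the libraries of that line alone and 1 to 2 without 1 library) and in ERK5-ko Hs-578T (2, against 1 with that line alone and 1 to 2 without 1 library). With fold limits of 1.5 and 0.5 the counts became 0 in ERK5-ko Hs-578T, 2 of 5 in MEK5DD MDA-MB-231, 1 of 3 in MEK5DD Hs-578T, 3 of 5 between the parental lines and 1 of 3 in the MEK5DD difference between lines, the last being 5 with quantile normalization and 5 with the replicate block.

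Replicate numbers are shared between groups, but nothing in the labels ties same-numbered libraries to a batch. Their deviations correlated with r between 0.107 and 0.541 in 6 pairings, each of 2 groups of 1 line. With the replicate block, 3441 genes passed in ERK5-ko MDA-MB-231 in place of 2379, ITGB8 no longer passed between the parental lines (-0.20, adjusted p = 0.205), and 5 member differences gained the call. They were ITGB1 in MDA-MB-231 for MEK5DD (-0.37, adjusted p = 0.00877) and for ERK5-ko against MEK5DD (0.25, adjusted p = 0.0395), ITGB4 in ERK5-ko MDA-MB-231 (0.38, adjusted p = 0.0255), and both in the MEK5DD difference between lines (adjusted p = 0.0324 for ITGB1 and 0.0356 for ITGB4).

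Depth limits ITGB6, ITGB7 and, in Hs-578T, ITGB2 and ITGB4, which had at most 18 reads in a library there.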
